A study of Mus musculus with 3 samples.

Results

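The neuronal cytoskeleton and growth genes described here were the 10 genes Stmn2, Stmn3, Tubb3, Nefl, Nefm, Nefh, Map2, Mapt, Gap43 and Prph, taken by symbol from a table of 20937 genes in which all 10 were listed. They were measured by RNAseq in the whole incisor enamel organ (EO) of mice aged 4 weeks, with 1 library per genotype. The Stim1 cKO library carried Stim1 fl/fl Cre+, the Stim1 HT library Stim1 fl/wt Cre+, and the Stim1 Ctrl library Stim1 fl/fl Cre-. All 3 thus carried at least 1 floxed allele of Stim1, and the AmelX-iCre driver of the first 2 acts in ameloblasts. Each genotype is stated as n = 1, and whether a sample was 1 animal or a pool was not given in the sources used here. The 10 genes were chosen by their function and by their counts in Stim1 cKO against the other libraries, which were already known, so their values are a description and no p-value is given for single genes.

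Neurons build their processes from microtubules and intermediate filaments. Neurofilaments and peripherin fill and widen axons, and in the adult peripherin belongs mainly to neurons with axons outside the brain and spinal cord. MAP2 stiffens the microtubules of dendrites and tau, the product of Mapt, those of axons, while stathmins bind free tubulin and GAP43 lies under the membrane of growth cones. The EO is an epithelium without neuronal cell bodies, and the nerve fibres near it come from cell bodies in ganglia outside the tooth. For the comparison of peripheral with central genes, Prph, Nefl, Nefm, Nefh and Gap43 were taken as peripheral axon genes, Map2, Mapt and Stmn3 as central neuron genes, and Stmn2 and Tubb3 as genes of both, although none of the 10 genes is confined to the one or the other kind of neuron.

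The counts summed to between 20216507 and 28265960 per library. A level is given as TMM-scaled CPM, counts relative to the library total after edgeR's TMM factors, and a count of 3, the limit of detection used here, equals between 0.117 and 0.152 CPM. Stim1, the targeted gene, was at 72.8 CPM in Stim1 cKO, with 129 CPM for Stim1 HT and 186 CPM for Stim1 Ctrl. The labels give ameloblasts as the cell type, and enamel genes were present in each library, but the libraries differed in them and in markers of other tissues. The summed level of 7 enamel epithelium genes was 4457 CPM in Stim1 cKO, with 31544 CPM for Stim1 HT and 23273 CPM for Stim1 Ctrl, and that of 9 skeletal muscle genes was 3461, 17155 and 25996 CPM in the same order. The enamel genes did not differ in 1 direction. Of the 7, 3 were more than 2-fold below both controls, beside 8.23% of all genes tested. A further 1 was more than 2-fold above both, beside 19.1% of all genes, and the median log2 fold change was -0.39. No genotype has a replicate, so the spread between mice is not known. In bulk RNA, a change in the number of cells of a type cannot be told apart from a change in the RNA per cell.

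Together the 10 genes held 38472 counts in Stim1 cKO, beside 7436 for Stim1 HT and 8498 for Stim1 Ctrl, or 1589 CPM against 377.5 and 330.2 CPM. They did not move together. Mapt, Map2, Stmn2, Stmn3, Tubb3 and Gap43 were over 2-fold above both controls in Stim1 cKO, while the neurofilament genes and Prph were not. These 6 passed the 2-fold limit, beside 19.1% of the 18702 genes tested, and the same 6 were those above both controls by any amount, beside 43.6% of all genes. Against the grouped controls, edgeR's quasi-likelihood test with an adjusted p under 0.01 and a fold change over 2 called 0 of the 10 genes, beside 0.0749% of all genes called higher and 0% called lower. With an adjusted p under 0.05, it called 5 of the 10 as higher and 0 as lower, beside 6.8% and 2.88% of all genes. An unadjusted p under 0.05 with a higher level was reached by 6 of the 10, beside 18.5% of all genes, and with a lower level by 0, beside 13.4%. DESeq2 at the same thresholds called 5 of the 10 as higher, Mapt, Map2, Stmn2, Tubb3 and Gap43, beside 5.86% of all genes, and 0 as lower, beside 4.61%. The rule for choosing the genes had this contrast in view, and nothing is read from these counts. The median log2 fold change was 1.89 over the 10 genes and -0.010 over all genes tested.

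**Figure D1:**
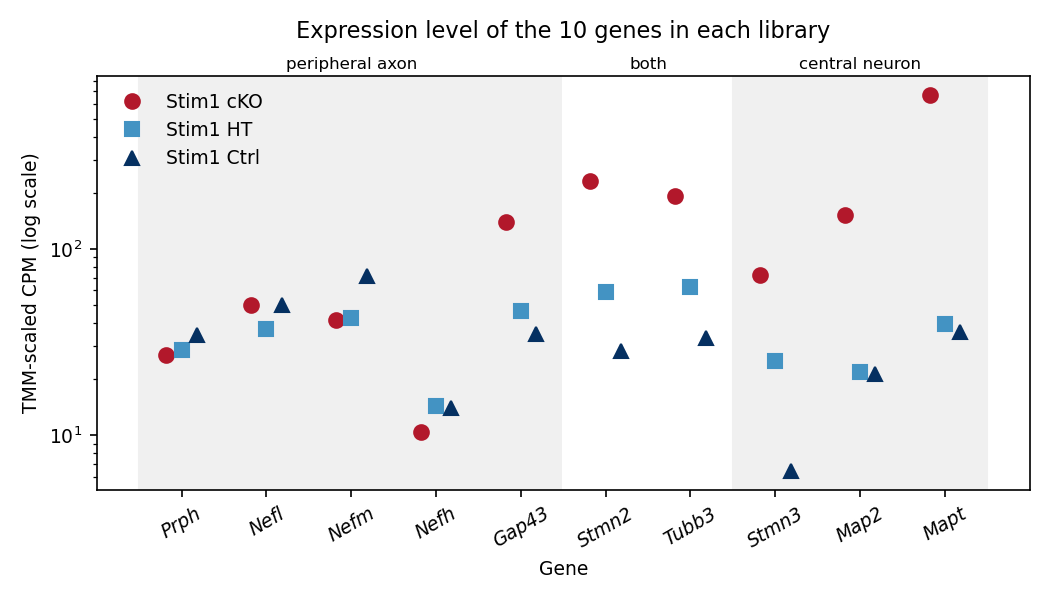
Level of each of the 10 genes (x axis, grouped as peripheral axon, both and central neuron) as TMM-scaled CPM on a log axis, with 1 point per library and no error bar, since each genotype has 1 library. In Prph, Nefl, Nefm and Nefh the 3 points lie within 2-fold of each other, whereas in the other 6 genes Stim1 cKO lies above both controls.

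The levels of each neurofilament subunit lay within 2-fold in the 3 libraries. Nefl, which encodes the light chain needed for filament assembly, is found on chromosome 14 (bases 68083863 to 68089095, GENCODE M21 on GRCm38, as for the other genes). Its level was 49.99 CPM in Stim1 cKO, with 37.4 CPM for Stim1 HT and 50.2 CPM for Stim1 Ctrl, so that Stim1 cKO lay between the controls, as did 14.3% of all genes tested. The span of Nefm, of the medium chain, runs from 68082590 to 68124846 on the other strand and contains that of Nefl in this annotation. It had 41.4 CPM in Stim1 cKO, with 42.7 CPM for Stim1 HT and 71.3 CPM for Stim1 Ctrl. The exons of Nefl and Nefm share 1108 bases on opposite strands, and whether strand was used in counting is not known, so reads there could be assigned to either gene.

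Nefh, of the heavy chain with its long phosphorylated tail, is found on chromosome 11 (bases 4938754 to 4948064). Its level was 10.5 CPM in Stim1 cKO, with 14.3 CPM for Stim1 HT and 14.1 CPM for Stim1 Ctrl. Prph, which encodes peripherin and is a different gene from the photoreceptor gene Prph2, is found on chromosome 15 (bases 99055174 to 99058978). Its level was 27.0 CPM in Stim1 cKO, with 28.7 CPM for Stim1 HT and 34.7 CPM for Stim1 Ctrl. The log2 fold change against the grouped controls was 0.19 for Nefl, -0.46 for Nefm, -0.44 for Nefh and -0.23 for Prph. The sign for Nefl changed to -0.0052 against Stim1 Ctrl alone, and that for Prph to 0.030 with scaling by library size, under which the median of all genes was 0.25. Nefm, Nefh and Prph were below both controls, which made 3 of the 10 genes, beside 42.1% of all genes tested.

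Relative to single controls, these 4 genes stayed within 2-fold. The ratio of Stim1 cKO to Stim1 HT was 1.34 for Nefl (95% interval 1.22 to 1.47), 0.970 for Nefm (0.885 to 1.06), 0.730 for Nefh (0.614 to 0.868) and 0.942 for Prph (0.840 to 1.06). The lowest ratio to Stim1 Ctrl was that of Nefm at 0.581 (0.537 to 0.628). These intervals are exact binomial ones and cover the counting error of a pair of libraries only, not the spread between mice.

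Gap43, on chromosome 16 (bases 42248442 to 42340651), differed from the other peripheral axon genes. Its level was 140.0 CPM in Stim1 cKO, with 46.7 CPM for Stim1 HT and 35.1 CPM for Stim1 Ctrl. Stim1 cKO was 3.00-fold above Stim1 HT (2.79 to 3.23) and 3.99-fold above Stim1 Ctrl (3.70 to 4.29). The log2 fold change was 1.78. GAP43 is also made by young and injured Schwann cells and by many central neurons.

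Stmn2 encodes a membrane-bound stathmin of growing axons and is found on chromosome 3 (bases 8509360 to 8561606). It had 5590 counts in Stim1 cKO, beside 1161 for Stim1 HT and 726 for Stim1 Ctrl, which equal 231, 58.9 and 28.2 CPM. Stim1 cKO was 3.92-fold above Stim1 HT (3.68 to 4.18) and 8.19-fold above Stim1 Ctrl (7.57 to 8.86). Tubb3, the beta-tubulin isotype typical of neurons, is found on chromosome 8 (bases 123411424 to 123422015). Its level was 192 CPM in Stim1 cKO, with 62.1 CPM for Stim1 HT and 33.2 CPM for Stim1 Ctrl. In both genes the 2 controls differed, with Stim1 HT 2.09-fold above Stim1 Ctrl for Stmn2 (1.90 to 2.30) and 1.87-fold for Tubb3 (1.71 to 2.05). The log2 fold change of Stim1 cKO was 2.41 for Stmn2 and 2.01 for Tubb3.

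Stmn3, a related stathmin of neurons, is found on chromosome 2 (bases 181306459 to 181314500). It had 72.5 CPM in Stim1 cKO, with 25.0 CPM for Stim1 HT and 6.45 CPM for Stim1 Ctrl. The gap between the controls, 3.87-fold (3.24 to 4.65), was larger than the 2.90-fold gap between Stim1 cKO and Stim1 HT (2.62 to 3.21). Map2, on chromosome 1 (bases 66175273 to 66442583), was at 152 CPM in Stim1 cKO, with 22.0 CPM for Stim1 HT and 21.3 CPM for Stim1 Ctrl. For Map2 the controls differed by 1.03-fold (0.910 to 1.18), while Stim1 cKO was 6.90-fold above Stim1 HT (6.25 to 7.65).

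Mapt, on chromosome 11 (bases 104231390 to 104332090), had the largest log2 fold change of the 10 genes. It held 16297 counts in Stim1 cKO, beside 783 for Stim1 HT and 919 for Stim1 Ctrl, or 673, 39.8 and 35.7 CPM. Stim1 cKO was 16.9-fold above Stim1 HT (15.8 to 18.2) and 18.9-fold above Stim1 Ctrl (17.6 to 20.2), while the controls differed by 1.11-fold (1.01 to 1.23). The log2 fold change was 4.16 for Mapt, with a standard error of 0.307 in DESeq2, 2.81 for Map2 (0.345) and 2.21 for Stmn3 (0.695). By log2 fold change, Mapt ranked 374 among the 18702 genes tested, Map2 1129 and Stmn3 1840. A single Stim1 cKO library stands behind each of these values.

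**Figure D2:**
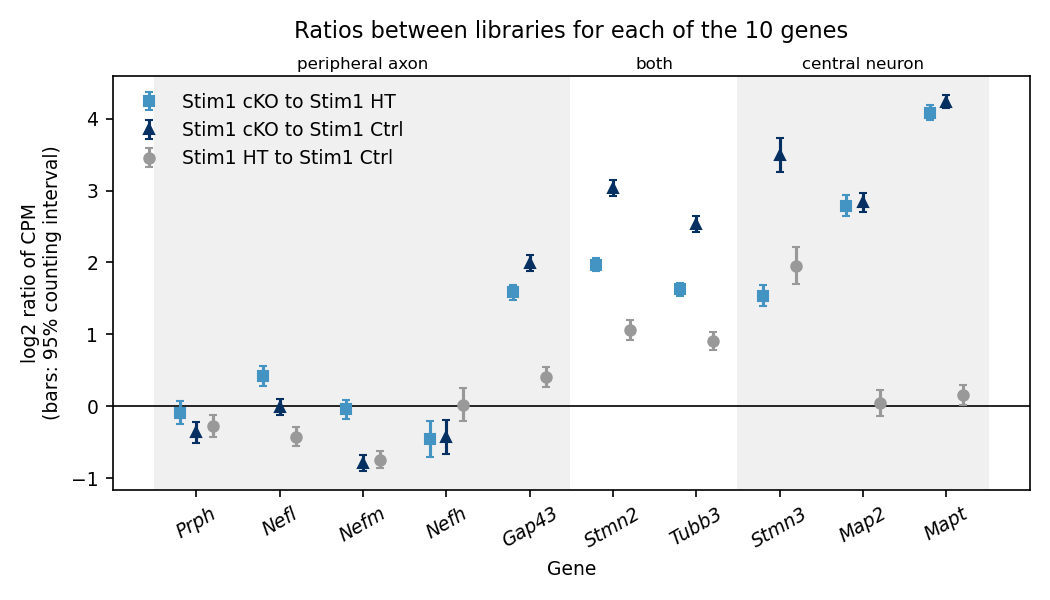
The log2 ratio of TMM-scaled CPM between each pair of libraries (y axis) for each of the 10 genes (x axis), with bars for the 95% counting interval. Ratios of Stim1 cKO to the controls lie near 0 for Prph, Nefl, Nefm and Nefh and reach 4.24 for Mapt to Stim1 Ctrl, and in Stmn3 the ratio of Stim1 HT to Stim1 Ctrl, 1.95, exceeds that of Stim1 cKO to Stim1 HT, 1.54.

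To order the 10 genes by level, CPM was divided by exon length, giving CPM per kb. In Stim1 cKO, Tubb3 had the highest level of the 10 genes at 103 CPM per kb. It was followed by Gap43 at 91.9 and Mapt at 89.4 CPM per kb, then by Stmn3 at 63.8 and Stmn2 at 41.2 CPM per kb. All 5 stood above Nefl at 14.8, Prph at 13.5, Map2 at 9.23, Nefm at 7.17 and Nefh at 2.62 CPM per kb. In Stim1 Ctrl the order began with Gap43 at 23.1, Tubb3 at 17.8, Prph at 17.4, Nefl at 14.8 and Nefm at 12.3 CPM per kb, while Mapt at 4.74 CPM per kb was number 8 and Map2 at 1.29 CPM per kb the lowest. In Stim1 HT, Tubb3 led at 33.3 CPM per kb before Gap43 at 30.6 and Stmn3 at 22.0 CPM per kb, with Map2 again lowest at 1.34 CPM per kb. Between the controls, Gap43 and Tubb3 exchanged places and Stmn3 stood at number 6 in Stim1 Ctrl but at number 3 in Stim1 HT, so the 2 controls do not give these genes 1 order. The exon lengths join all annotated exons, from 1.14 kb for Stmn3 to 16.4 kb for Map2, and a level per kb is too low where few of those exons are used.

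The comparison of peripheral axon with central neuron genes can be made within each library, where no scaling between libraries enters. Map2, Mapt and Stmn3 made up 56.5% of the counts of the 10 genes in Stim1 cKO (95% Wilson interval 56.0 to 57.0), beside 23.0% for Stim1 HT (22.0 to 23.9) and 19.2% for Stim1 Ctrl (18.4 to 20.1). Mapt alone held 42.4% of the counts of the 10 genes in Stim1 cKO (41.9 to 42.9), beside 10.5% for Stim1 HT (9.85 to 11.2) and 10.8% for Stim1 Ctrl (10.2 to 11.5). Of the same total, Map2 and Stmn3 held 14.1% in Stim1 cKO (13.8 to 14.5). Their share was 12.4% for Stim1 HT (11.7 to 13.2) and 8.39% for Stim1 Ctrl (7.82 to 8.999). That total includes Mapt, so the higher count of Mapt in Stim1 cKO lowers the shares of the other genes there. The 5 peripheral axon genes made up 16.9% in Stim1 cKO (16.5 to 17.3), beside 45.0% for Stim1 HT (43.8 to 46.1) and 62.2% for Stim1 Ctrl (61.2 to 63.2). Without Gap43, the neurofilament genes and Prph made up 8.11% in Stim1 cKO (7.84 to 8.39), beside 32.6% for Stim1 HT (31.5 to 33.7) and 51.6% for Stim1 Ctrl (50.5 to 52.6). In CPM per kb, the central neuron genes held 37.2% of the summed level in Stim1 cKO. Their value was 20.5% for Stim1 HT and 11.1% for Stim1 Ctrl. Map2 and Stmn3 held 16.7% in both Stim1 cKO and Stim1 HT and 6.60% in Stim1 Ctrl, again of a total that includes Mapt. As TMM-scaled CPM, Map2 and Stmn3 summed to 224 CPM in Stim1 cKO, with 47.0 CPM for Stim1 HT and 27.7 CPM for Stim1 Ctrl. The 5 peripheral axon genes, Gap43 included, summed to 269 CPM in Stim1 cKO, above 170 CPM for Stim1 HT and 205 CPM for Stim1 Ctrl. The neurofilament genes and Prph among them summed to 129, 123 and 170.3 CPM in the same order. The 2 controls differed from each other by more than the counting error in the shares of counts of the central neuron genes and of the neurofilament genes with Prph. The median log2 fold change was 2.81 over the 3 central neuron genes and -0.23 over the 5 peripheral axon genes, with Gap43 at 1.78 among the latter. The peripheral value became 0.030 with scaling by library size, and -0.043 against Stim1 HT alone.

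**Figure D3:**
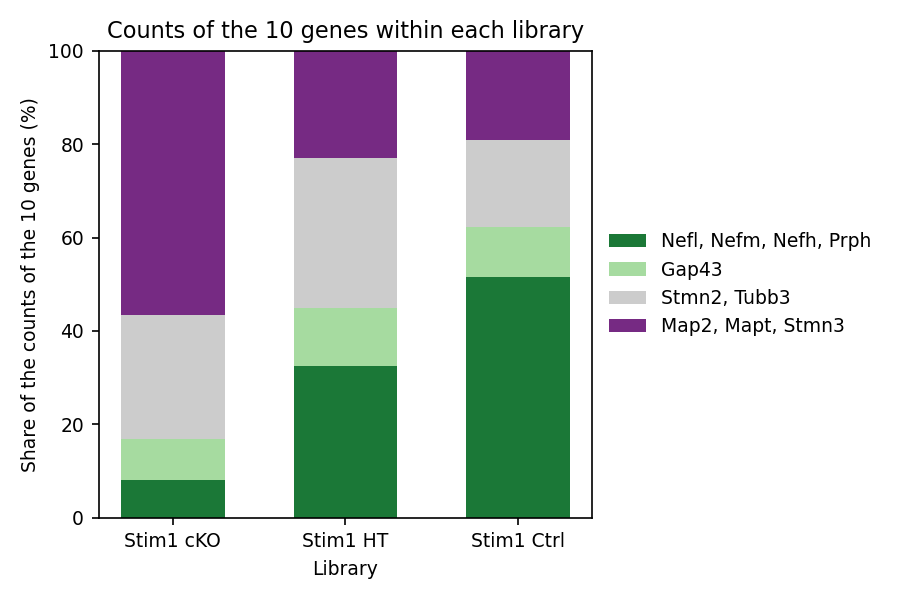
Share of the summed counts of the 10 genes (y axis, percent) in each library (x axis), split into neurofilament genes with Prph, Gap43, Stmn2 with Tubb3, and the central neuron genes. The central neuron share is 56.5% in Stim1 cKO against 23.0% in Stim1 HT and 19.2% in Stim1 Ctrl, with Mapt alone at 42.4% in Stim1 cKO.

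Single ratios within a library showed the same order. For each count of Nefl there were 13.5 counts of Mapt in Stim1 cKO (12.7 to 14.3, Wilson), beside 1.06 for Stim1 HT (0.962 to 1.18) and 0.712 for Stim1 Ctrl (0.654 to 0.775). The ratio of Gap43 to Nefl was 2.80 in Stim1 cKO (2.62 to 2.99), beside 1.25 for Stim1 HT (1.13 to 1.38) and 0.700 for Stim1 Ctrl (0.643 to 0.762). Ratios among the axonal filament genes lay closer together. That of Prph to Nefl was 0.540 in Stim1 cKO (0.491 to 0.594), beside 0.768 for Stim1 HT (0.688 to 0.857) and 0.692 for Stim1 Ctrl (0.636 to 0.754). The ratio of Mapt to Map2 was 4.44 in Stim1 cKO (4.28 to 4.60), above 1.81 for Stim1 HT (1.61 to 2.03) and 1.68 for Stim1 Ctrl (1.51 to 1.87), so that Mapt differed between libraries more than Map2 did. For each count of Tubb5, a beta-tubulin of most cell types, there were 0.392 counts of Tubb3 in Stim1 cKO, beside 0.0766 for Stim1 HT and 0.0421 for Stim1 Ctrl.

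Promoter windows from RefSeq on GRCm38.p6, from 250 bases before to 50 bases after the annotated start, were at hand for 4 of the 10 genes. They are shown because Map2, Stmn3 and Tubb3 were higher in Stim1 cKO while Prph was not. Capitals mark matches on either strand to the TATA sequence TATAAA, the CCAAT sequence and the GC box GGGCGG, so that a match to CCAAT or GGGCGG on the other strand reads ATTGG or CCGCCC. Sequences run 5′ to 3′ on the strand of the gene.
Map2, chr1:66175079-66175378, plus strand: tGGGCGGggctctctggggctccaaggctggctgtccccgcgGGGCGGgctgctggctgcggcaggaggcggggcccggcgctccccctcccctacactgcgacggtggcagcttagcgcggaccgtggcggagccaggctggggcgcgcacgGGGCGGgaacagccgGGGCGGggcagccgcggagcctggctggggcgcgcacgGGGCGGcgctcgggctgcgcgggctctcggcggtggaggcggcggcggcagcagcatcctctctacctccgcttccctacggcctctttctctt
Tubb3, chr8:123411303-123411602, plus strand: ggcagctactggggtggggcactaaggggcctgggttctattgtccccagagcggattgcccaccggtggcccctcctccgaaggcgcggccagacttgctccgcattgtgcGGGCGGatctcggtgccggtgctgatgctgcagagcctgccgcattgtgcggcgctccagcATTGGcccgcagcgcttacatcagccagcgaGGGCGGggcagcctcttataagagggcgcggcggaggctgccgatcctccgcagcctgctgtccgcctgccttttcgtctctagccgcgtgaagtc
Stmn3, chr2:181314451-181314750, minus strand: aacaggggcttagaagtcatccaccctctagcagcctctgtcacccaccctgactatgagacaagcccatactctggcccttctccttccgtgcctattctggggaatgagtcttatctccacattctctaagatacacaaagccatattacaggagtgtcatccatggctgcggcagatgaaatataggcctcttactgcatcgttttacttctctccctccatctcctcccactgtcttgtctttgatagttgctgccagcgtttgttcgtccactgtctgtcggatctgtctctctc
Prph, chr15:99054924-99055223, plus strand: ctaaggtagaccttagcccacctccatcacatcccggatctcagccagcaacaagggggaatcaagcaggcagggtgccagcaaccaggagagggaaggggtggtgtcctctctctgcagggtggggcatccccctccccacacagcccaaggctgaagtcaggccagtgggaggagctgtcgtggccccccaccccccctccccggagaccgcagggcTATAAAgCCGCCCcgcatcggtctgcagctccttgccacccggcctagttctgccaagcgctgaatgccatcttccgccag

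No motif was found in all 4 windows, while a GC box was found in those of Map2, Tubb3 and Prph. The Map2 window held 5 GC boxes, 37 CpG sites and 77.7% G and C, and that of Tubb3 held 2 GC boxes, 1 CCAAT sequence, 26 CpG sites and 67.3% G and C. The Stmn3 window held none of the 3 motifs, 6 CpG sites and 49.7% G and C. Prph was the one gene of the 4 with a TATAAA match, which began at position -31 from the start. Its window also held 1 GC box, 10 CpG sites and 64.7% G and C. Among the 32851 mouse promoter windows of the same length, 35.7% held GGGCGG, 37.4% held CCAAT and 13.6% held TATAAA, and the median window had 52.7% G and C. These matches describe letters only and were not tested against the expression values.

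Between Stim1 HT and Stim1 Ctrl, which have 1 library each and allow no test, 2 of the 10 genes were more than 2-fold apart, beside 13.5% of all genes tested. These were Stmn2 and Stmn3, both higher in Stim1 HT, beside 9.82% of all genes higher and 3.64% lower there, while Nefm was lower in Stim1 HT at 0.599 of Stim1 Ctrl (0.551 to 0.650). Nefh (1.02-fold), Map2 and Mapt were close between the controls. The markers of olfactory neurons, which also use Stmn2, Stmn3, Tubb3 and Gap43, differed in the same direction. The 9 tested genes of that list summed to 608 CPM in Stim1 cKO, with 269 CPM for Stim1 HT and 65.4 CPM for Stim1 Ctrl, and 8 of the 9 were more than 2-fold higher in Stim1 HT than in Stim1 Ctrl. Omp, a marker of mature olfactory neurons, was at 221 CPM in Stim1 cKO, with 105 CPM for Stim1 HT and 0.622 CPM for Stim1 Ctrl, and Rtp1 of the list was not analysed here. This direction was not particular to olfactory genes. Of other lists, 8 of 12 autonomic neuron, 8 of 16 pan-neuronal and 6 of 8 tested oligodendrocyte genes were more than 2-fold higher in Stim1 HT. The peripheral sensory neuron list went the other way, with 9 of 17 genes more than 2-fold lower in Stim1 HT. The part of any of these cells in the levels of Stmn2, Stmn3 and Tubb3 was not tested.

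The other genes of the neuronal cytoskeleton followed both patterns. Among 8 other microtubule-associated proteins, 5 (Map1b, Map6, Map7d2, Map9 and Dcx) were over 2-fold above both controls in Stim1 cKO and 0 more than 2-fold lower, beside 19.1% and 8.23% of all genes, with a median log2 fold change of 2.15. Map1b, an abundant protein of growing axons, was at 1715 CPM in Stim1 cKO, with 180 CPM for Stim1 HT and 151 CPM for Stim1 Ctrl. Map4, which serves most cell types, was at 190 CPM in Stim1 cKO, with 199 CPM for Stim1 HT and 209 CPM for Stim1 Ctrl. Of 14 other growth cone and axon surface genes, 9 were more than 2-fold higher than in both controls and 0 lower, and the median log2 fold change was 1.66. Basp1, a membrane protein of growth cones related in function to GAP43, was at 605 CPM in Stim1 cKO, with 121 CPM for Stim1 HT and 94.0 CPM for Stim1 Ctrl. Rtn1, a reticulon of neurons, was at 687 CPM against 36.8 and 13.9 CPM.

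The other tubulin genes did not differ in 1 direction. Of these 10 genes, 3 (Tubb2a, Tubb2b and Tubb4a) were over 2-fold above both controls in Stim1 cKO, beside 19.1% of all genes. Tubb6 was the 1 more than 2-fold lower, beside 8.23% of all genes. Both counts are near those shares, and the median log2 fold change was 0.010. Tubb2b, an isotype of developing neurons, was at 290 CPM in Stim1 cKO, with 108 CPM for Stim1 HT and 91.7 CPM for Stim1 Ctrl. Tuba1a, at 602, 668 and 502 CPM, and Tubb5, at 489, 812 and 789 CPM, were within 2-fold of both controls. Among intermediate filaments, Ina, of the neurofilament partner alpha-internexin in central neurons, was at 93.8 CPM in Stim1 cKO, with 8.93 CPM for Stim1 HT and 2.53 CPM for Stim1 Ctrl. Its exons overlap those of Nt5c2 on the other strand. Nes, Vim and Des were more than 2-fold below both controls, with Des of muscle at 251 CPM against 1089 and 1481 CPM, and Vim of mesenchyme at 466 CPM against 1371 and 1636 CPM.

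Of 9 motor protein genes, 4 (Kif5a, Kif5c, Kif1a and Kif21b) were more than 2-fold higher than in both controls and 0 lower, beside 19.1% and 8.23% of all genes, which also stand beside the counts of the lists that follow. Kif5c, a kinesin heavy chain of neurons, was at 136 CPM in Stim1 cKO, with 22.4 CPM for Stim1 HT and 17.1 CPM for Stim1 Ctrl, while its widely expressed relative Kif5b was at 363, 237 and 290 CPM. Of 5 spectrin and ankyrin genes, Ank3 and Sptbn4 exceeded both controls more than 2-fold. Ank3, of the axon initial segment, was at 450 CPM in Stim1 cKO against 76.6 and 109 CPM, and Sptbn1 was at 347 CPM, between Stim1 HT (297 CPM) and Stim1 Ctrl (429 CPM). The stathmin Stmn1, which dividing cells also use, was at 209 CPM in Stim1 cKO, with 159 CPM for Stim1 HT and 101 CPM for Stim1 Ctrl. Of 9 regulators of neuronal and regeneration genes, Sox11 at 620 CPM against 53.7 and 32.2 CPM, Sox4 and Klf7 were more than 2-fold higher than in both controls. Jun, at 142, 104 and 131 CPM, and Rcor1, a partner of the repressor REST, at 64.0, 64.1 and 78.6 CPM, were not. edgeR called 0 genes of these 8 lists at an adjusted p under 0.01, with 33 of their 62 genes at an unadjusted p under 0.05 and a higher level and 5 with a lower one, beside 18.5% and 13.4% of all genes. DESeq2 called 27 of the 62 higher and 4 lower, beside 5.86% and 4.61% of all genes.

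**Figure D4:**
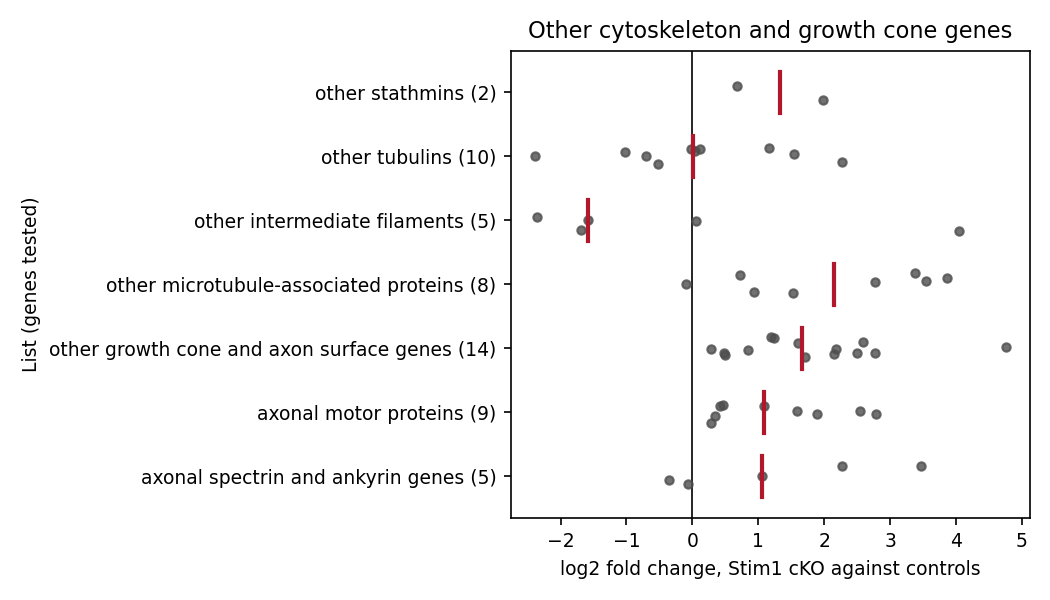
Fitted log2 fold change of Stim1 cKO against the grouped controls (x axis) for the tested genes of 7 lists of other cytoskeleton and growth cone genes (y axis, number of genes in parentheses), with 1 point per gene and a red bar at the median. The medians are 2.15 for the microtubule-associated proteins and 0.010 for the tubulins, and the intermediate filaments run from -2.36 for Des to 4.04 for Ina.

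Markers of neurons outside the 10 genes were set side by side in the same way. Of 16 central neuron genes, 13 exceeded both controls more than 2-fold in Stim1 cKO and 0 were more than 2-fold below both, with a median log2 fold change of 4.18. Nrgn, a calmodulin-binding protein of forebrain dendrites, was at 151 CPM in Stim1 cKO, with 8.48 CPM for Stim1 HT and 5.98 CPM for Stim1 Ctrl. Grin2b, an NMDA receptor subunit, was at 136 CPM against 2.13 and 1.79 CPM, and was the one gene of the list that edgeR's quasi-likelihood test called at an adjusted p under 0.01. Camk2a, a kinase of forebrain synapses, was at 69.8 CPM, between Stim1 HT (65.3 CPM) and Stim1 Ctrl (92.5 CPM). Over 16 pan-neuronal genes, 12 were more than 2-fold higher than in both controls and the median log2 fold change was 2.75, with Elavl3 at 722 CPM against 28.1 and 5.87 CPM. The whole list summed to 2455 CPM in Stim1 cKO, with 402 CPM for Stim1 HT and 226 CPM for Stim1 Ctrl.

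Of 17 tested peripheral sensory neuron genes, 3 (Calcb, Scn9a and Isl1) were over 2-fold above both controls in Stim1 cKO and 3 more than 2-fold lower, beside 19.1% and 8.23% of all genes, with a median log2 fold change of -0.45. That median became 0.10 against Stim1 HT alone and -0.92 against Stim1 Ctrl alone. Of the 17 genes, 9 were more than 2-fold lower in Stim1 HT than in Stim1 Ctrl, beside 3.64% of all genes. In the other direction, 3 were more than 2-fold higher, beside 9.82% of all genes. Several of the 9 had few counts in Stim1 HT, such as 8 for Scn10a. Piezo2, the mechanosensitive channel of touch neurons, was at 21.3 CPM in Stim1 cKO, with 19.8 CPM for Stim1 HT and 32.3 CPM for Stim1 Ctrl, and Ret was at 13.7, 14.2 and 21.1 CPM. Scn9a, a sodium channel of sensory and some central neurons, was at 62.6 CPM in Stim1 cKO against 9.70 and 6.37 CPM. Isl1 was at 39.2 CPM in Stim1 cKO, with 10.2 CPM for Stim1 HT and 4.31 CPM for Stim1 Ctrl. Scn10a, the sodium channel most particular to sensory ganglion neurons and chosen for mention after its values were seen, had 1 count in Stim1 cKO, beside 8 for Stim1 HT and 162 for Stim1 Ctrl. Its log2 fold change, -6.18, was the lowest of the 17 genes, and its counts also differed between the controls, so Scn10a does not stand for the list. Calca was at 0.454 CPM in Stim1 cKO, with 33.8 CPM for Stim1 HT and 3.54 CPM for Stim1 Ctrl. Calca is also the calcitonin gene of the thyroid, and Tg, the thyroglobulin gene, was at 780 CPM in Stim1 HT against 1.12 CPM in Stim1 cKO and 3.58 CPM in Stim1 Ctrl. The part of thyroid RNA in the level of Calca was not tested. Kcnk18 was not analysed here.

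The 12 autonomic neuron genes summed to 51.9 CPM in Stim1 cKO, with 83.9 CPM for Stim1 HT and 59.1 CPM for Stim1 Ctrl, with a median log2 fold change of 0.16. They did not differ in 1 direction. Npy was at 17.2, 2.74 and 0.738 CPM, while Ddc, which held most of the Stim1 Ctrl sum, was at 5.91, 27.3 and 40.8 CPM. The 3 tested motor neuron genes summed to 6.32, 3.45 and 2.68 CPM. Schwann cell genes, which mark the sheath of peripheral nerve, summed to 1014 CPM in Stim1 cKO, with 1924 CPM for Stim1 HT and 2695 CPM for Stim1 Ctrl. Of the 13, 4 were more than 2-fold below both controls in Stim1 cKO and 0 more than 2-fold above both, beside 8.23% and 19.1% of all genes, with a median log2 fold change of -0.99. Prx, which encodes periaxin of the Schwann cell membrane, was at 45.4 CPM in Stim1 cKO, with 123 CPM for Stim1 HT and 191 CPM for Stim1 Ctrl. Over the same libraries, the 4 neurofilament and peripherin genes summed to 129, 123 and 170.3 CPM. Whether the Schwann cell genes and these 4 genes differ in their response was not tested.

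Other cell types were examined by their markers. All 8 tested photoreceptor genes were over 2-fold above both controls in Stim1 cKO. The list summed to 1061 CPM in Stim1 cKO, with 12.9 CPM for Stim1 HT and 11.8 CPM for Stim1 Ctrl, and 6 of its 14 genes were not analysed here. Retinal ganglion cells are the retinal cells richest in neurofilaments. The 6 tested genes of their list summed to 124 CPM in Stim1 cKO, with 106 CPM for Stim1 HT and 111 CPM for Stim1 Ctrl. Most of that sum came from Thy1, at 58.2, 48.0 and 56.3 CPM, and Rbpms, at 27.2, 32.4 and 31.4 CPM. Of the 6, 2 were more than 2-fold higher than in both controls, Pou4f2 (1.20, 0.203 and 0.233 CPM) and Eomes (2.93, 0.406 and 0.117 CPM). The 7 tested retinal interneuron genes summed to 182, 50.6 and 45.8 CPM and the 5 astrocyte genes to 244, 84.4 and 70.8 CPM. The 8 tested oligodendrocyte genes summed to 68.2 CPM in Stim1 cKO, with 60.9 CPM for Stim1 HT and 38.6 CPM for Stim1 Ctrl. Of the 8, 3 were more than 2-fold above both controls and 0 more than 2-fold below, beside 19.1% and 8.23% of all genes. Their median log2 fold change was 1.44. Olig1 was at 14.3, 6.85 and 0.311 CPM and Olig2 at 10.3, 5.89 and 0.117 CPM, whereas Mag was at 8.43, 16.6 and 24.9 CPM. The 4 tested pituitary and thyroid genes summed to 2.73 CPM in Stim1 cKO, with 1313 CPM for Stim1 HT and 4.20 CPM for Stim1 Ctrl, and 7 mesenchyme genes to 26492, 32817 and 52016 CPM. The part of these cell types in the levels of the 10 genes was not tested.

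**Figure D5:**
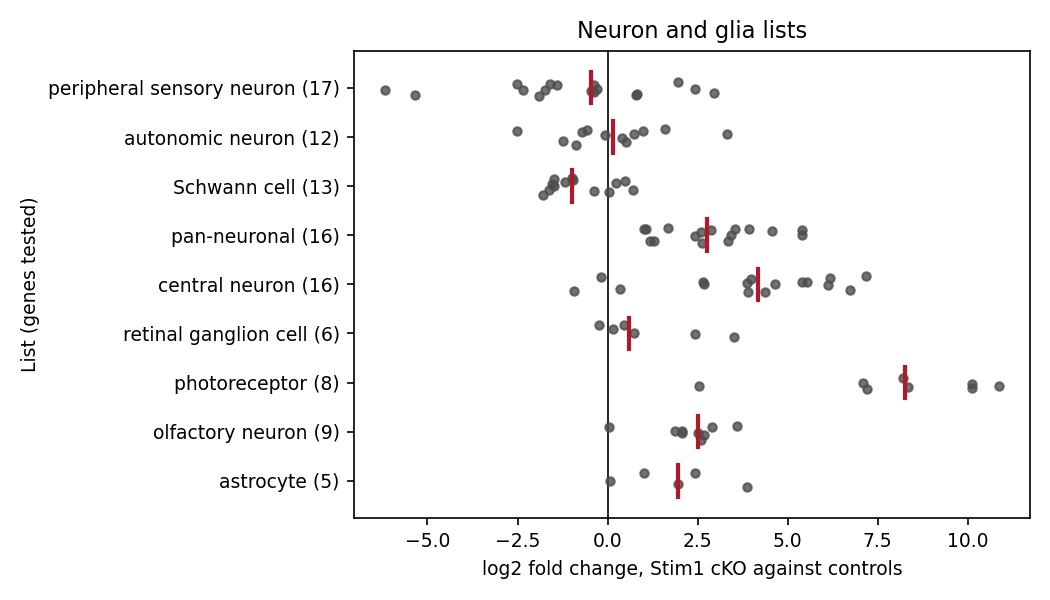
Fitted log2 fold change of Stim1 cKO against the grouped controls (x axis) for the tested genes of 9 neuron and glia lists (y axis, number of genes in parentheses), with 1 point per gene and a red bar at the median. The medians are -0.45 for peripheral sensory neuron, -0.99 for Schwann cell, 4.18 for central neuron and 8.27 for photoreceptor genes.

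The genes whose profile over the 3 libraries lay nearest to the mean profile of each subset were taken by Euclidean distance of centred log2(CPM + 1), over 14967 other genes that averaged 50 or more counts. Nearest to the peripheral axon genes were Ppp2r5b at a distance of 0.0052, Ptpn4 at 0.0057 and Emc1 at 0.0096, and 1268 genes lay within 0.2. Ppp2r5b was at 39.8 CPM in Stim1 cKO, with 32.6 CPM for Stim1 HT and 37.5 CPM for Stim1 Ctrl. That mean profile includes Gap43, which was higher in Stim1 cKO, whereas Nefm, Nefh and Prph were below both controls. The neighbours thus resemble an average that these 3 genes do not share. Nearest to the central neuron genes were Gm38071 at 0.068, Pou2f2 at 0.070 and Caly at 0.071, and 24 genes lay within 0.2. With 3 libraries, a profile consists of little more than a pair of ratios, and a small distance is a description only.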

How the data were processed

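RNAseq covered the whole incisor EO at 4 weeks of age, 1 library per genotype. According to the paper, the authors checked reads with FastQC, dropped those of low quality and mapped trimmed read pairs with STAR. They deposited raw counts per gene symbol, not normalized. For differential expression the paper names DESeq2, as do the submitters' processing notes, so the paper's tool is an alternative here and not the main test. Version of the aligner, genome build, annotation, counting tool and strand setting are not given in the sources used here, and the paper and the labels name different library kits (NEBNext directional and SMARTER). The smallest listed count is 1, so genes with 0 counts in any library are not analysed here. Symbols of 25 entries had turned into dates and 2 symbols were repeated, and all were kept as listed.

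The contrast of Stim1 cKO with both controls grouped, which is that of the paper, was fitted in edgeR 4.0.16 (R 4.3.3) after TMM scaling (factors between 0.911 and 1.13) and filterByExpr, which kept 18702 genes. The quasi-likelihood test was used, with p-values adjusted by Benjamini-Hochberg, and a call needed an adjusted p under 0.01 and a fold change over 2. Dispersion was 0.106 with 1 residual degree of freedom, which rests on the 2 controls alone and so includes their difference in genotype. DESeq2 1.42.0 (without independent filtering, Cook's cutoff or shrinkage), RLE, upper-quartile and library size scaling, no filter, a higher minimum count, an adjusted p under 0.05, the log2(CPM + 1) scale and either control alone were the alternatives. Both tests were first run on simulated counts. Positions and exon lengths came from GENCODE M21 on GRCm38, which holds 20719 of the 20937 symbols. The 10 genes and all lists were chosen with earlier results of these data known. Genes named were the 10 genes, Stim1, the 5 of each list with the highest mean CPM and the 3 nearest profiles, and some genes that make up a count of 5 or fewer were named after their values were seen, as was Scn10a. A few genes of the lists are counted but not reported here by name. Intervals and limits of detection cover counting error only. Python 3.11.15, pandas 2.3.3 and scipy 1.17.1 were used.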

Additional observations from a re-analysis of the deposited data

How the results depend on the processing

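With edgeR and TMM, 14 genes were called, 0 of them among the 10 genes described. DESeq2 called 1959 genes and 5 of the 10, edgeR without a filter 907 and 4, upper-quartile scaling 138 and 2, RLE scaling 50 and 1, and an adjusted p under 0.05 1811 and 5. Library size scaling and a mean of at least 50 counts each called 6 genes. The number of genes more than 2-fold above both controls was 6 under every alternative run for it. The median log2 fold change of the 10 genes was 2.14 with library size scaling and lay between 1.56 and 2.26 without one control. That of the central neuron members was 3.07 with library size scaling and 2.79 to 3.49 without one control. That of the peripheral axon members was -0.10 with upper-quartile scaling, -0.12 at a mean of at least 50 counts, 0.030 with library size scaling and -0.36 to -0.043 without one control. The median of all genes became 0.12 under upper-quartile and 0.25 under library size scaling. The median of the central neuron list was 3.46 on the log2(CPM + 1) scale and 3.88 to 4.42 without one control, and that of the peripheral sensory neuron list -0.92 to 0.10. Among 80 values of single genes, 66 counted as kept and 12 gained a call. Values without 1 control carry no call and counted as kept while within the standard deviation of the 2 controls. Dropping 1 of 2 controls rarely moves a value further, so that label says little. Stmn3 counted as kept at 3.49 without Stim1 HT and 1.54 without Stim1 Ctrl, beside 2.21 in the main fit. The sign changed in 2 values, for Nefl without Stim1 HT (-0.0052, and 0.42 without Stim1 Ctrl) and for Prph with library size scaling (0.030). The cause was not tested. No paired analysis was possible because each genotype has 1 library.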
